A study of Mus musculus with 6 samples.

Results

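The keratin and epidermal differentiation clusters were read here as 193 tiled regions of a mouse methylation array, out of 22574 regions on the whole array. They were all runs of at least 3 probes, with starts at most 500 bp apart, whose mm9 positions lay in 4 fixed intervals: chr3:92000000-93800000, chr11:99200000-100150000, chr15:101200000-102100000 and chr16:88500000-89900000. The intervals held 58, 58, 44 and 33 regions in that order, and 1434 of the 1460 probes placed in the intervals fell in such a region. The rule for a region uses position alone, but the intervals were set with earlier results of these data known. The chromosome 3 interval is called the epidermal differentiation interval, those of chromosomes 11 and 15 the type I and type II keratin intervals, and that of chromosome 16 the keratin-associated protein interval. These names rest on the known chromosomal places of the gene families, because no gene is named for any probe in the array files. RefSeq lists 23 keratin-associated protein genes on chromosome 11 beside 27 keratins. The name type I keratin interval therefore does not mean keratins alone, and its regions could not be split by family. Any of the 4 intervals may also hold genes outside the families that name it. Single regions are therefore given by coordinates and not by gene.

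The samples were hypothalamic tissue of mouse offspring aged 16 weeks. Each group had 3 arrays: offspring of dams labelled as given inulin, a fermentable plant fibre, and offspring of dams labelled as obese and as fed a high fat diet. The labels do not say whether the inulin dams also received the high fat diet, and they give no strain, sex or litter, and no lean control group was analysed here. P-values therefore measure only the spread between these 3 and 3 samples, which may share litters. Methylated DNA was pulled down with an antibody (MeDIP), labelled red (Cy5) and hybridised together with the sample's own input DNA, labelled green (Cy3). The level of a region is the mean over its probes of log2 of red over green, after each array was centred on its median, so 0 is the typical probe of that array. Per array, 94.4% to 96.4% of probes had an input signal well above background, and 77.3% to 85.7% had such a MeDIP signal. Precision is limited by having 3 arrays per group. In bulk tissue, a change in the mix of cells and a change of methylation within cells cannot be told apart.

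The epidermal differentiation complex encodes proteins of the cornified envelope, the cross-linked shell of dead surface keratinocytes. Its families include loricrin, involucrin, filaggrin, the small proline-rich (Sprr) proteins and the late cornified envelope (Lce) proteins. Keratins are intermediate filament proteins that assemble as pairs of a type I and a type II chain, and keratin-associated proteins embed the keratins of the hair shaft. The genes of these families serve mainly skin, hair and other epithelia and are largely silent in neurons. Their clusters are useful as long blocks of tissue-restricted genes with few CpG islands, the stretches rich in the CG dinucleotide (CpG) at which mammalian DNA is methylated. MeDIP pulls down methylated DNA more strongly where methylated CpGs are dense, so its ratio reflects both methylation and CpG density.

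To show how far the CpG content of these promoters differs, the 250 bases before the gene start are printed for the member with the median CpG count of each of 5 families and for the keratin promoter richest in CpGs. Capitals mark each CG. The sequences are from RefSeq on GRCm38.p6, a later build than the array's mm9, and were not joined to probes by position. Lce1a1 (chr3:92648308-92648557, minus strand) encodes a late cornified envelope protein, and Krtap2-4 (chr11:99614847-99615096, minus strand) and Krtap15 (chr16:88828759-88829008, plus strand) encode keratin-associated proteins. Krt13 (chr11:100120578-100120827, minus strand) is a type I keratin of mucosal epithelia, Krt2 (chr15:101818170-101818419, minus strand) a type II keratin of the upper epidermis, and Krt7 (chr15:101412153-101412402, plus strand) a type II keratin of simple epithelia.
Lce1a1: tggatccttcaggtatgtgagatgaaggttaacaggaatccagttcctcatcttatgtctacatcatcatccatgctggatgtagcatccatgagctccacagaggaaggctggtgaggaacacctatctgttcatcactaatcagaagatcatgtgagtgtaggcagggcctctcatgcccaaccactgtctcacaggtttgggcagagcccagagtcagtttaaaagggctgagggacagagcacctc
Krtap2-4: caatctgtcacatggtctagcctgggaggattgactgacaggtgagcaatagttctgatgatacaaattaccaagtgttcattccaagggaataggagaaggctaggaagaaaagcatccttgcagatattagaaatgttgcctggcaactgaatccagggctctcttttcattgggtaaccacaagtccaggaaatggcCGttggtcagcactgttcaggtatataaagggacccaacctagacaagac
Krtap15: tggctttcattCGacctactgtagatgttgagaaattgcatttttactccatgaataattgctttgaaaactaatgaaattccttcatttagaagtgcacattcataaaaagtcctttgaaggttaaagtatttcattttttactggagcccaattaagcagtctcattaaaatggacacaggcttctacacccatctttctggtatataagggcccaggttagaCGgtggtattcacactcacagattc
Krt13: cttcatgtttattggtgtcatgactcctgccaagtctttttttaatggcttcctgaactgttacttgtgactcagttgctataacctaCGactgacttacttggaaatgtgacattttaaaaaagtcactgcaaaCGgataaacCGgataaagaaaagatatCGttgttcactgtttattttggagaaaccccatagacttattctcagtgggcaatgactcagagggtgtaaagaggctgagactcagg
Krt2: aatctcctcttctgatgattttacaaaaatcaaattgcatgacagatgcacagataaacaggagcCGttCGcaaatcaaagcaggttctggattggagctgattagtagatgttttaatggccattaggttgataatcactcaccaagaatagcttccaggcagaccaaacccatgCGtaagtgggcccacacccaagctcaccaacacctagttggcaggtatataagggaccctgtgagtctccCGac
Krt7: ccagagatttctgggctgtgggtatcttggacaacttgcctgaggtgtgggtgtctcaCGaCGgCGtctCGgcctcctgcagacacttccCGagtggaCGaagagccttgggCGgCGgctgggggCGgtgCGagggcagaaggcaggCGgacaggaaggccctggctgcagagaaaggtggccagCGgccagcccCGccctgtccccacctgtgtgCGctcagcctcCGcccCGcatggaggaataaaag

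These stretches hold 0 CpGs for Lce1a1, 1 for Krtap2-4, 2 for Krtap15, 4 for Krt13, 4 for Krt2 and 16 for Krt7. RefSeq windows of 300 bases, from 250 before to 50 after the start, were counted for each family. A promoter was found for 20 of 21 Lce genes, 14 of 14 Sprr genes, 9 of 9 filaggrin, loricrin and related genes, 20 of 27 keratins and 21 of 23 keratin-associated proteins of chromosome 11, 16 of 26 keratins of chromosome 15 and 23 of 24 keratin-associated proteins of chromosome 16. The median was 1 CpG over 20 Lce windows, 1 over 14 Sprr windows and 1 over 9 windows of filaggrin, loricrin and related genes of chromosome 3. It was 2 over 21 windows of keratin-associated proteins on chromosome 11, 3 over 23 on chromosome 16, 5 over 21 windows of chromosome 11 keratins and 6 over 16 windows of chromosome 15 keratins. The median over all 32851 windows was 7. Windows with at least 10 CpGs made up 43.5% of all windows. Among the clusters these were 3 of 16 keratin windows on chromosome 15 and 1 of 21 on chromosome 11, with 0 in the other families. The 3 include Krt18, a type I keratin with 17 CpGs, so the chromosome 15 keratins are not all type II. The letters TATAAA, searched on both strands, were in 20 of 21 keratin-associated protein windows of chromosome 11, 16 of 23 of chromosome 16, 10 of 14 Sprr windows and 4 of 20 Lce windows. They were in 13 of 21 keratin windows of chromosome 11, 6 of 16 of chromosome 15 and 13.6% of all windows. For filaggrin, loricrin and related genes it was 6 of 9. A match to these letters is a description and not a binding site.

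The first question was how the 4 intervals stood to each other in MeDIP over input ratio. The type II keratin interval had the highest level and the epidermal differentiation interval the lowest, with the type I keratin and keratin-associated protein intervals between them. On the 3 inulin arrays, the mean level of the epidermal differentiation interval was -0.69, -0.58 and -0.52, and on the obesity arrays it was -0.73, -0.83 and -0.83. The keratin-associated protein interval had -0.42, -0.38 and -0.33 against -0.49, -0.61 and -0.60, in the same order of arrays. Both intervals lay below the array median on all 6 arrays. The type I keratin interval had -0.057, -0.030 and -0.12 against -0.22, -0.14 and -0.32. On the same arrays the type II keratin interval had 0.36, 0.35 and 0.23 against 0.26, 0.31 and 0.18, above the array median on every array.

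The order type II keratin, type I keratin, keratin-associated protein, epidermal differentiation held on each of the 6 arrays. All 6 pairs of intervals were compared within arrays by an exact two-sided sign-flip permutation test, whose smallest p with 6 arrays is 0.031. Each pair reached it (exact permutation, adjusted p = 0.031 over the 6 pairs). The same probes were read on every array, so this p measures only how the distance repeats over arrays. It does not separate methylation from CpG density or from properties of the probes. The mean distance was -0.98 ± 0.13 (SD, n = 6 arrays) from epidermal differentiation to type II keratin, -0.55 ± 0.10 to type I keratin and -0.22 ± 0.029 to keratin-associated protein. It was -0.43 ± 0.059 from type I to type II keratin and 0.32 ± 0.087 from type I keratin to keratin-associated protein. Type II keratin lay 0.75 ± 0.11 above keratin-associated protein. The MeDIP channel alone gave the same order on all 6 arrays. In the input channel, type I and type II keratin differed by -0.13 ± 0.11, in that direction on 5 of 6 arrays (exact permutation p = 0.0625), and the other pairs kept their order.

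**Figure D1:**
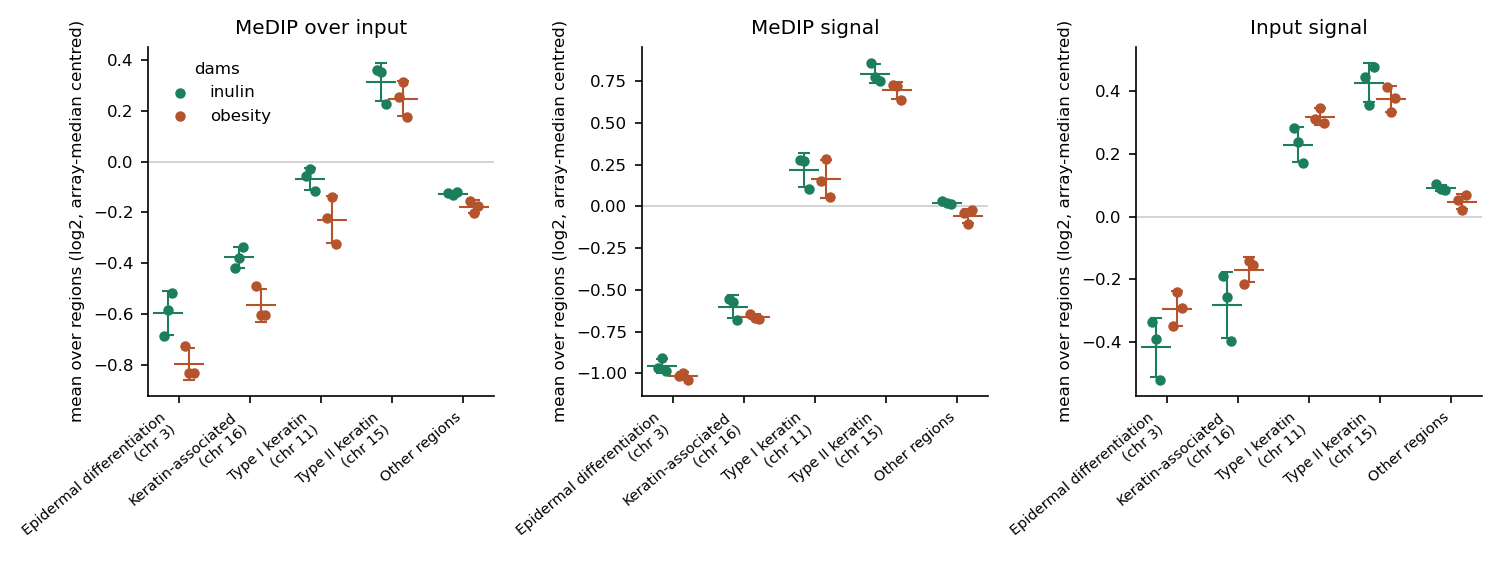
Mean log2 level of each interval and of all other regions on each array, for the ratio, the MeDIP channel and the input channel; points are arrays, and bars show the mean and SD of 3 arrays. The type II keratin interval is highest (0.31 in the inulin group for the ratio) and the epidermal differentiation interval lowest (-0.80 in the obesity group).

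Against the regions outside the intervals, the epidermal differentiation interval had a mean distance of -0.54 ± 0.10 (SD, n = 6 arrays) and the keratin-associated protein interval of -0.32 ± 0.085, each lower on 6 of 6 arrays. Type II keratin was higher by 0.43 ± 0.074 on 6 of 6 arrays. Each of these 3 had an adjusted p of 0.0417 by the exact sign-flip permutation test, which again measures only repetition over arrays. The type I keratin interval differed by 0.0036 ± 0.096, above 0 on 4 of 6 arrays (exact permutation p = 0.875). Its own regions ranged from -1.20 to 0.68, so this mean held both very low and high regions. A positive level was found at 34 of 44 regions of the type II keratin interval, 23 of 58 of the type I keratin interval, 5 of 58 of the epidermal differentiation interval and 5 of 33 of the keratin-associated protein interval, against 46.2% of all regions. The lowest 10% of all regions contained 12 regions of the epidermal differentiation interval and 0 of the type II keratin interval, and the highest 10% contained 0 and 11.

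The level also changed along the chromosome within an interval. The type I keratin interval was split by span into 3 equal stretches, whose mean levels were -0.35 over 22 regions, -0.30 over 19 regions and 0.29 over the 17 regions from chr11:99847422 to chr11:100132387. This distal stretch had a mean probe length of 47.6 bp, against 51.6 and 51.8 bp in the other two. The epidermal differentiation interval went from -0.81 over its first 29 regions to -0.59 over 18 and -0.58 over 11. The stretches of the type II keratin interval had 0.31, 0.29 and 0.23. The stretches of the keratin-associated protein interval had -0.50 over 20 regions, -0.66 over 7 and -0.16 over 6. Within the regions of the type II keratin interval, probes at most 300 bp from the region's centre averaged 0.11 and probes more than 600 bp away 0.40. The outer probes were also higher in the type I keratin interval (-0.22 at the centre, 0.0015 outside) and the keratin-associated protein interval (-0.56 and -0.36). Only in the epidermal differentiation interval were they lower, with central probes at -0.63 and outer ones at -0.87. Central probes were longer than outer ones in each interval, for example 48.1 against 46.8 bp in type II keratin and 54.2 against 53.7 bp in epidermal differentiation. These are means over probes of the same arrays, given as descriptions.

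**Figure D2:**
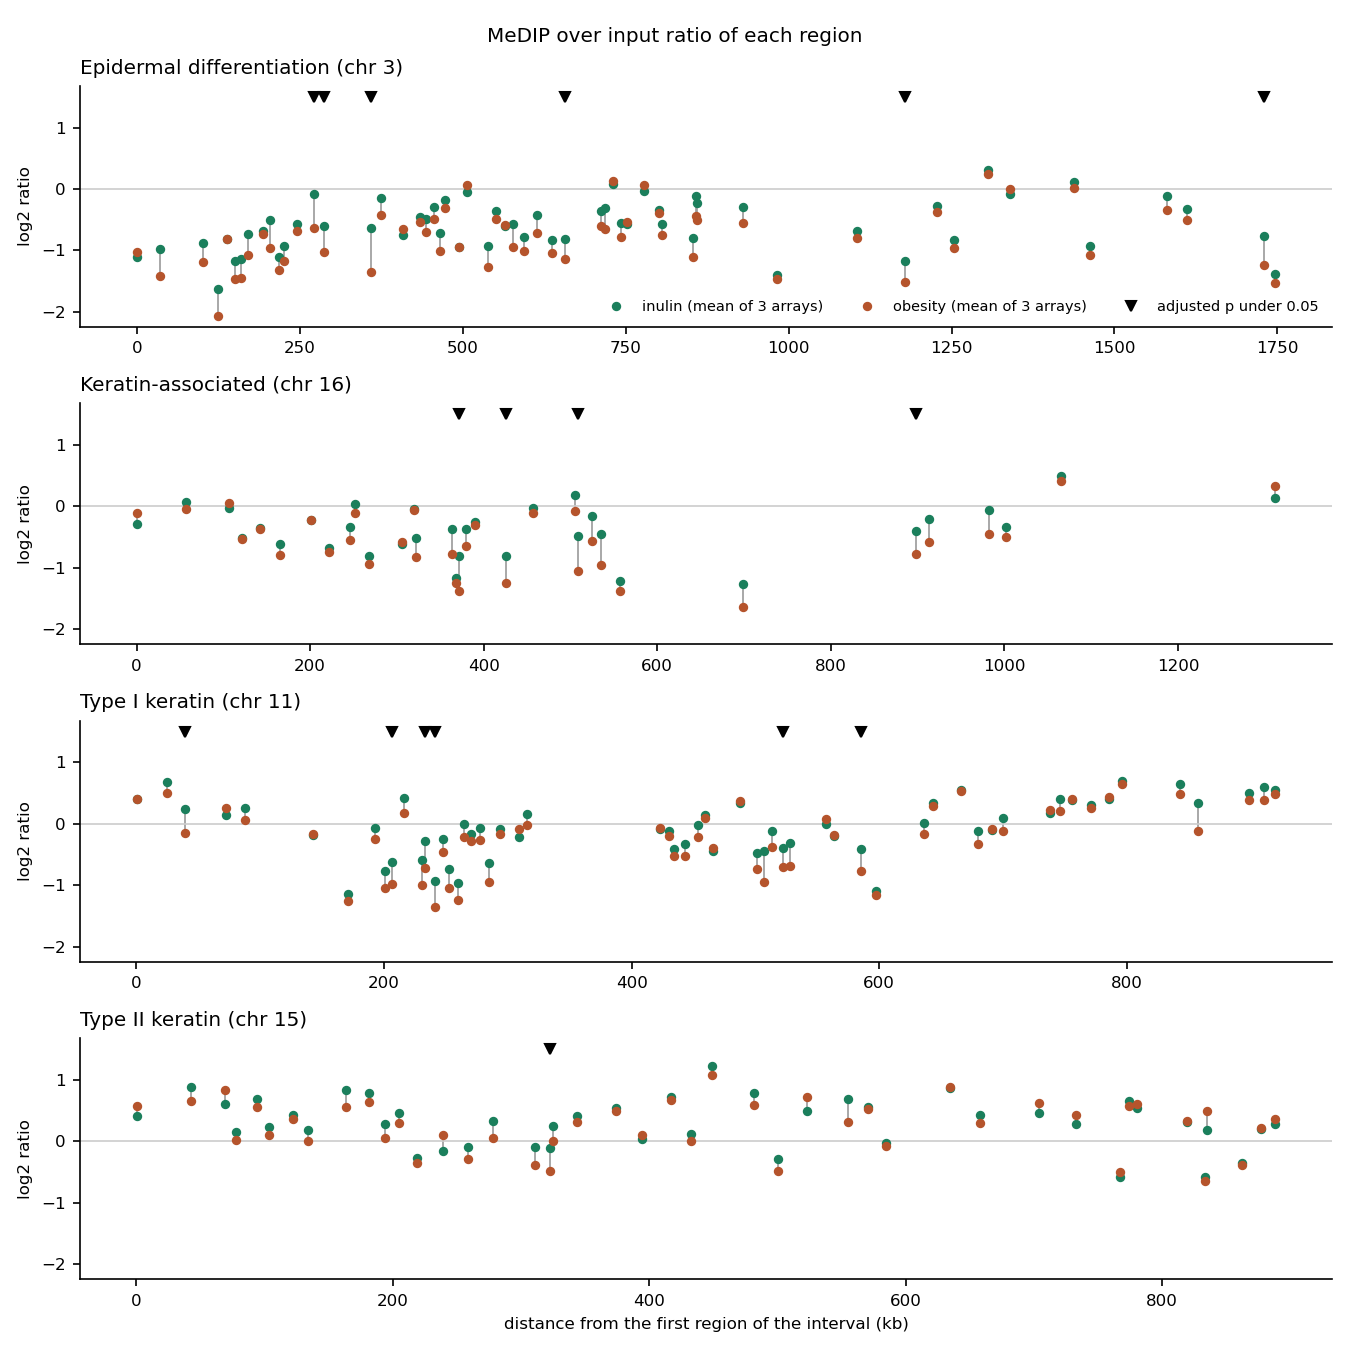
Mean log2 ratio of each of the 193 regions in the 2 groups (dots, mean of 3 arrays) against distance from the first region of its interval in kb; triangles mark the 17 regions with an adjusted p under 0.05. In the type I keratin interval, the last stretch averages 0.29 and the earlier ones -0.35 and -0.30.

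Single regions show the extremes behind these means. The highest of the 193 was chr15:101648115-101649589 in the type II keratin interval, with 1.25, 1.29 and 1.14 on the inulin arrays and values from 0.93 to 1.20 on the obesity arrays. Its mean of 1.15 lay above 99.4% of all regions, with the input at -0.20 and the MeDIP signal at 1.02. The groups overlapped there (limma adjusted p = 0.309). The next in that interval, chr15:101834275-101835978, averaged 0.88. The lowest of the 193 was chr3:92141780-92143470, with -1.82, -1.60 and -1.45 against -1.84, -2.32 and -2.04. All 3 inulin arrays lay above the obesity arrays at this region, but its adjusted p by limma was 0.073. Only 29.2% of its MeDIP spots were well above background, so its level is weakly measured. In the epidermal differentiation interval the highest region, chr3:93323212-93324782, reached 0.27. The type I keratin interval ran from -1.20 at chr11:99382076-99383770 to 0.68 at chr11:100006747-100008418. The keratin-associated protein interval ran from -1.45 at chr16:89204824-89206350 to 0.45 at chr16:89570929-89572593.

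In the epidermal differentiation interval, the second highest region, chr3:92747685-92748757, averaged 0.11, with MeDIP and input signals of 1.60 and 1.43, both far above the array median. The type I keratin interval had a second high region at chr11:99235718-99237047, with a mean of 0.59, but it varied between arrays, from 0.48 to 0.83 in the inulin group and from 0.23 to 0.81 in the obesity group. In the type II keratin interval, the lowest levels were -0.62 at chr15:102032781-102033985 and -0.54 at chr15:101966147-101967924, higher than the mean of the epidermal differentiation interval. The keratin-associated protein interval had -1.30 at chr16:89063751-89064639 and 0.23 at chr16:89818113-89819182. The longest runs held 9 probes. One of them, chr3:92176541-92178323, averaged -1.30 with 22.2% of its MeDIP spots well above background, another, chr11:99283083-99284853, averaged 0.20 with 75.9%. The run chr15:101200057-101201756 had 0.39, 0.42 and 0.41 on the inulin arrays and 0.55, 0.63 and 0.56 on the obesity arrays. All 3 inulin arrays lay lower there, with a difference of -0.17 that did not pass (limma adjusted p = 0.131).

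Probe length moved with these levels. Probes were 45 to 60 bp long, and arrays of this make use longer probes where the sequence is richer in A and T. The mean over regions was 53.4 bp in the epidermal differentiation interval, 53.0 bp in the keratin-associated protein interval, 50.5 bp in the type I keratin interval and 47.4 bp in the type II keratin interval, against 49.2 bp over all regions. Across the 193 regions, the level correlated with mean probe length at r = -0.75, a description over regions that share the same arrays. Among probes of 45 to 49 bp, the mean level was -0.22 in the epidermal differentiation interval, -0.11 in the keratin-associated protein interval, 0.25 in the type I and 0.41 in the type II keratin interval, the same order as before. At 60 bp the levels were -1.11, -0.65, -0.93 and -0.55, so the keratin-associated protein interval lay above the type I keratin interval there. With only probes of at least 50 bp, the distance between these intervals was -0.025 (exact permutation p = 0.5) in place of 0.32. The share of the probe length in the order of the intervals was otherwise not tested.

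The second question was whether the clusters differed between the offspring of dams given inulin and those of obese dams. The mean level was higher in the inulin group in all 4 intervals, but 3 arrays against 3 cannot give an exact p below 0.1. The epidermal differentiation interval had -0.60 ± 0.086 (SD, n = 3) on the inulin arrays against -0.80 ± 0.062 on the obesity arrays, a difference of 0.20. The difference was 0.19 in the keratin-associated protein interval (-0.38 ± 0.042 against -0.57 ± 0.066) and 0.16 in the type I keratin interval (-0.067 ± 0.044 against -0.23 ± 0.092). In these 3 intervals the groups did not overlap (exact permutation p = 0.1, adjusted p = 0.133 over the 4 intervals). In the type II keratin interval the groups overlapped, at 0.31 ± 0.076 against 0.25 ± 0.069, a difference of 0.066 (exact permutation p = 0.3).

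The other regions of the array had a difference of 0.052 in the same direction. The excess of each interval over these regions was 0.15 for epidermal differentiation, 0.14 for keratin-associated protein, 0.11 for type I keratin and 0.014 for type II keratin. By the exact permutation test the adjusted p was 0.2, 0.2, 0.267 and 1 in that order, so no interval was shown to differ between the groups by more than the rest of the array. For the 6 pairs of intervals, the test of a difference in the group difference gave adjusted p of 0.6 or 0.8 (exact permutation test). The largest distance, 0.14, was between epidermal differentiation and type II keratin, with overlapping groups (exact permutation p = 0.3). Only between type I and type II keratin, at 0.096, did the groups not overlap (exact permutation p = 0.1). By the scan times in the file headers, the 3 inulin arrays shared scan 1, obesity arrays 1 and 3 shared scan 2 and obesity array 2 had scan 3. No scan held both groups, so no within-scan difference exists and the scan and the group cannot be told apart. The spread of levels over the array also differed, with an interquartile range of 1.37 to 1.39 over probes on the inulin arrays and 1.62 to 1.89 on the obesity arrays.

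By limma on all 22574 regions with Benjamini-Hochberg adjustment, 17 of the 193 regions (8.81%) passed an adjusted threshold of 0.05, against 7.42% of all regions. All 17 had a higher level in the inulin group, where the background is 5.61%, and 0 had a lower one, where it is 1.81%. The regions called were 6 of 58 (10.3%) in the epidermal differentiation interval, 6 of 58 (10.3%) in the type I keratin interval, 1 of 44 (2.27%) in the type II keratin interval and 4 of 33 (12.1%) in the keratin-associated protein interval. At an unadjusted p under 0.05, 64 regions were higher (background 19%) and 6 lower (background 9.6%). The median difference was 0.21, 0.19, 0.080 and 0.16 in the order above, against 0.033 over all regions. The groups did not overlap, with the inulin arrays higher, at 23, 19, 4 and 10 regions, against 20.8% of all regions. With the inulin arrays lower, they did not overlap at 7 type II keratin regions and 1 keratin-associated protein region, against 14.2%.

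Single probes were tested as well. In the epidermal differentiation interval, 47 of 422 probes were called higher in the inulin group by limma (background 5.12%) and 8 lower (background 3.08%). The counts were 31 and 8 of 425 in the type I keratin interval, 13 and 10 of 335 in the type II keratin interval and 18 and 6 of 246 in the keratin-associated protein interval. Leaving out any single inulin array removed the calls. Without inulin array 1, 2 or 3 there were 0 calls among the 193 and 0 on the whole array (background 0%), while 54, 49 and 66 of the 193 had an unadjusted limma p under 0.05 (backgrounds 20.8%, 19.1% and 24%). All 17 regions stayed higher in the inulin group there, with median differences of 0.45, 0.39 and 0.41 against 0.42 with all arrays. The 17 had been chosen as higher on these same arrays, so their direction was largely set beforehand and gives no separate support. Leaving out obesity array 1, 2 or 3 gave 11, 28 and 4 calls (backgrounds 4.22%, 9.62% and 2.8%). The scan as a random block gave 0 calls (background 0%), and 49 regions had an unadjusted limma p under 0.05 there (background 17.9%). With the scan block all 17 regions stayed higher too, with a median difference of 0.41, and the same limit holds.

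In the epidermal differentiation interval, the largest difference was at chr3:92377170-92378930, a run of 8 probes. Its level was -0.77, -0.51 and -0.62 on the inulin arrays and -1.23, -1.19 and -1.64 on the obesity arrays. The groups did not overlap, and the difference of 0.72 (SE 0.12, limma adjusted p = 0.0212) is a 1.65-fold ratio. The MeDIP signal differed by 0.55 and the input by -0.16, and 56.3% of the MeDIP spots were well above background. A second region, chr3:92289369-92291092, had -0.26, 0.091 and -0.097 against -0.58, -0.58 and -0.72. The ratio was higher on every inulin array, by 0.54 (limma adjusted p = 0.0228), but the MeDIP signal there differed by -0.26, the other way (limma adjusted p = 0.184). The input there was -0.24, -0.47 and -0.37 on the inulin arrays and 0.35, 0.52 and 0.41 on the obesity arrays, without overlap, a difference of -0.79 with an adjusted p of 0.0258 by limma on the input channel. A further region, chr3:93746966-93748663, had -0.81, -0.77 and -0.72 against -1.08, -1.25 and -1.39, a difference of 0.48 (limma adjusted p = 0.0239).

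In the keratin-associated protein interval, the region with the lowest p of the 193 was chr16:88877784-88879396. Its level was -0.78, -0.84 and -0.78 on the inulin arrays and -1.19, -1.52 and -1.44 on the obesity arrays. The groups lay far apart against their spread, with a difference of 0.58 (SE 0.093, limma adjusted p = 0.0184). The input differed by -0.46 there and the MeDIP signal by 0.11. At chr16:89014222-89015826 the level was -0.58, -0.54 and -0.34 against -0.87, -1.22 and -1.06, a difference of 0.56 (limma adjusted p = 0.0237). At chr16:88932077-88932750 the difference was 0.45 (limma adjusted p = 0.0471), and the MeDIP signal differed by -0.033. The input differed by -0.41 and -0.47 at these 2 regions, so its mean was lower in the inulin group at all 3. The one region whose groups separated the other way was chr16:88506724-88508466, with -0.34, -0.29 and -0.22 against -0.094, -0.085 and -0.12 (difference -0.18, limma adjusted p = 0.129).

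In the type I keratin interval, chr11:99444496-99446193 had -0.27, -0.28 and -0.27 on the inulin arrays and -0.65, -0.64 and -0.88 on the obesity arrays. The inulin arrays were nearly identical there, and the difference was 0.45 (SE 0.083, limma adjusted p = 0.0236). The neighbouring run chr11:99452192-99453904 had -1.03, -0.84 and -0.93 against -1.32, -1.27 and -1.48, a difference of 0.42 (limma adjusted p = 0.0283). Another nearby region, chr11:99417697-99419445, had a difference of 0.37 (limma adjusted p = 0.0281), beside a MeDIP difference of 0.31 and an input difference of -0.040. These lie within the first stretch of the interval, which held 4 of its 6 calls, while the last stretch held 0. At chr11:99250188-99251571 the level was 0.29, 0.26 and 0.15 against -0.066, -0.12 and -0.27. This was the only one of the named calls with a positive level in the inulin group, and its difference of 0.39 (limma adjusted p = 0.0302) turned to -0.082 with probes under 50 bp and to -0.020 after normexp background correction.

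In the type II keratin interval 1 region was called, chr15:101521617-101523154, with -0.061, -0.088 and -0.17 on the inulin arrays and -0.47, -0.40 and -0.59 on the obesity arrays. The groups did not overlap, and the difference of 0.38 (SE 0.077, limma adjusted p = 0.0288) came with a MeDIP difference of 0.48 and an input difference of 0.12. This region is lower than most of its interval. The region nearest to a call in the other direction was chr15:102034552-102035407, with 0.095, 0.30 and 0.18 against 0.49, 0.42 and 0.58. All 3 inulin arrays lay below the obesity arrays, with a difference of -0.30 (limma adjusted p = 0.0546). At the adjacent run chr15:102032781-102033985 both channels were higher in the inulin group, the input by 0.52 (limma adjusted p = 0.0495) and the MeDIP signal by 0.58 (limma adjusted p = 0.104), while the ratio differed by 0.073.

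Over the 17 called regions, the difference ran from 0.30 to 0.72 with a median of 0.42. At 15 of the 17 the inulin group had the lower input, and at 14 it had the higher MeDIP signal. The input differed by more than the MeDIP signal at 10 of the 17, against 49.1% of all regions. Tested alone by limma, the MeDIP channel gave 0 calls among the 193 (background 0.253%), with 33 higher and 16 lower at an unadjusted p under 0.05 (backgrounds 15.2% and 5.78%). The input channel gave 4 calls among the 193 (background 2.14%), 1 in the epidermal differentiation interval, 1 in the type I and 2 in the type II keratin interval. The interval means are given for both channels. The input differed by -0.12, -0.11 and -0.089 in the epidermal differentiation, keratin-associated protein and type I keratin intervals and by 0.052 in the type II keratin interval. Only in type I keratin did the input groups not overlap (exact permutation p = 0.1, adjusted p = 0.267). The MeDIP signal differed by 0.062, 0.061, 0.055 and 0.10. Its groups did not overlap in the epidermal differentiation and type II keratin intervals (exact permutation p = 0.1, adjusted p = 0.2) and overlapped in the others. The type II keratin interval was thus the only one of the 4 with a higher mean input in the inulin group, where its groups overlapped (exact permutation p = 0.3). In the regions outside the intervals, the MeDIP signal differed by 0.079 and the input by 0.044. The excess over these regions in the MeDIP signal was -0.017, -0.019, -0.024 and 0.021 in the same order of intervals, with overlapping groups in each. In the input it was -0.17, -0.16 and -0.13, without overlap (exact permutation, adjusted p = 0.133), and 0.0078 for type II keratin.

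**Figure D3:**
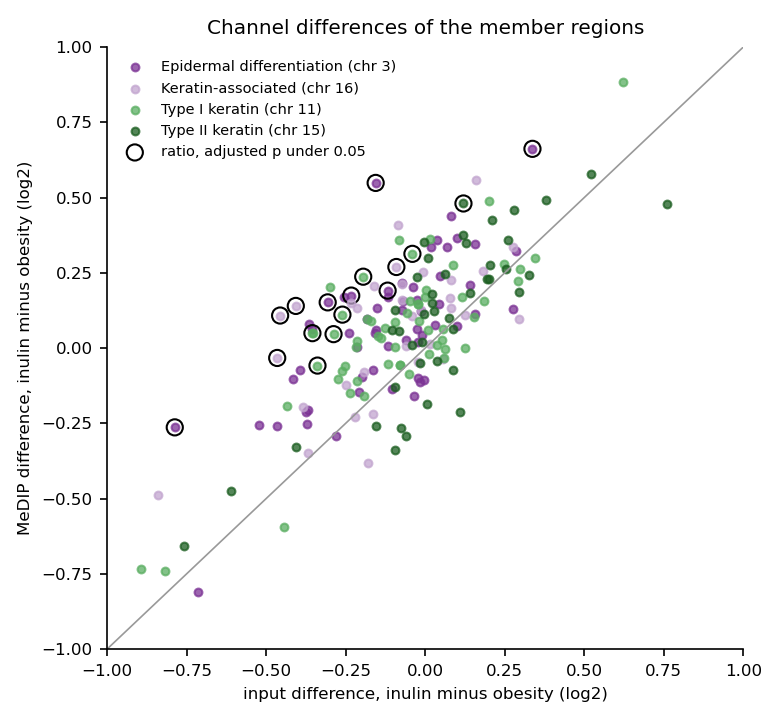
Difference between the groups (inulin minus obesity, log2) in the MeDIP channel against that in the input channel, 1 dot per region, with the 17 called regions ringed and a line where both are equal. The called regions lie above the line, because they were chosen for a higher ratio. Of them, 15 had a lower input and 14 a higher MeDIP signal in the inulin group.

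The group difference moved with probe length as well. Among probes of 60 bp the difference was 0.49 in the epidermal differentiation interval, 0.50 in the type I keratin interval, 0.37 in the type II keratin interval and 0.43 in the keratin-associated protein interval, and 0.45 in the regions outside them. Among probes of 50 to 59 bp it was 0.15, 0.24, 0.31 and 0.16, and 0.15 outside. In both classes the groups did not overlap in any interval (exact permutation p = 0.1, the smallest possible). Among probes of 45 to 49 bp it was -0.018, 0.016, 0.0073 and -0.017, with overlapping groups, and -0.064 outside. At 60 bp the 4 intervals thus lay between 0.37 and 0.50, around the 0.45 of the rest of the array, and a difference between intervals within a class of probe length was not tested.

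Probes of 60 bp made up 32.0% of the probes in the epidermal differentiation interval, 31.1% in the keratin-associated protein interval, 17.0% in the type I keratin interval and 4.32% in the type II keratin interval. Over the 4 intervals, the 60 bp probes had an input difference of -0.29, with groups that did not overlap, and a MeDIP difference of 0.16, with groups that did. Outside the intervals, these differences at 60 bp were -0.19 and 0.24, both without overlap. Probes of 50 to 59 bp had no overlap in the other channel over the 4 intervals. Their MeDIP signal differed by 0.18, without overlap, and their input by -0.0011, with overlap. The 60 bp probes were dim, with 44.4% of their MeDIP spots and 83.2% of their input spots well above background, against 93.2% and 98.9% at 45 to 49 bp. Of the 17 called regions, 16 had a mean probe length of at least 50 bp, as had 122 of the 193 regions and 34.3% of all regions. Across the 193 regions the difference correlated with mean probe length at r = 0.50, as a description.

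**Figure D4:**
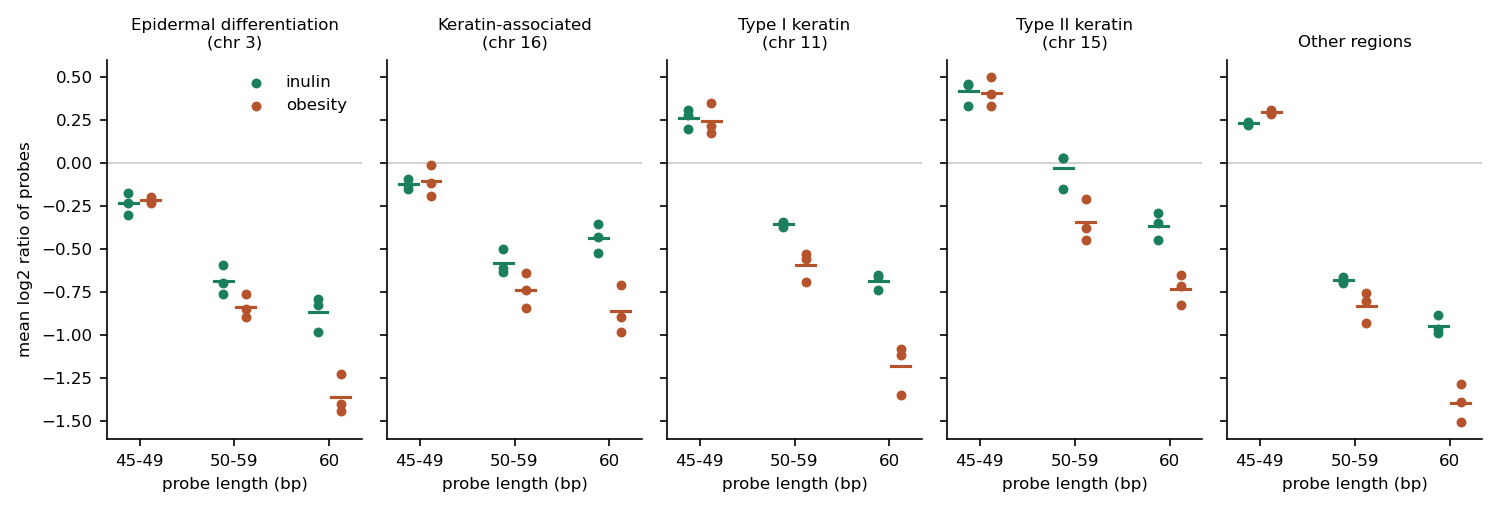
Mean log2 ratio of probes by probe length in bp for each interval and for the other regions; points are arrays and short lines the mean of 3 arrays per group. The groups separate at 60 bp (0.49 in the epidermal differentiation interval) and overlap at 45 to 49 bp in the 4 intervals.

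The size and the order of the interval differences depended on how the arrays were scaled. With the spread of the arrays made equal, the difference fell from 0.20 to 0.048 in the epidermal differentiation interval and from 0.19 to 0.084 in the keratin-associated protein interval. In the type I keratin interval it went from 0.16 to 0.13, and in the type II keratin interval it went up from 0.066 to 0.13. Over single regions, the median difference went from 0.21 to 0.048 in the epidermal differentiation interval and from 0.080 to 0.16 in the type II keratin interval, which moved from the smallest median of the 4 to the largest. Quantile normalization gave interval differences of 0.047, 0.079, 0.12 and 0.11 for epidermal differentiation, keratin-associated protein, type I and type II keratin. The authors' deposited table, in its own unit, gave 0.014, 0.028, 0.081 and 0.079. These interval means were above 0, but the median over the epidermal differentiation regions was -0.0045 in the authors' deposited table, with 27 of 58 regions higher in the inulin group. After normexp background correction the type II keratin interval had 0.012, with 24 of 44 regions higher. With probes under 50 bp alone, the keratin-associated protein interval turned to -0.069. The number of called regions among the members moved with that of the whole array. It was 21 after normexp background correction (background 8.51%), 29 after loess (background 12.4%), 7 with equal spread (background 4.1%), 1 after quantile normalization (background 2.2%) and 3 in the authors' deposited table (background 2.58%). With both channels well above background there were 10 calls (background 6.5%), with the median of the probes 4 (background 3.25%) and at an adjusted threshold of 0.1 there were 47 (background 17.7%). With probes of at least 50 bp alone, 30 of 122 member regions were called (24.6%, background 25.2%), all higher in the inulin group. With probes under 50 bp alone, 3 of 133 were called higher (background 1.92%) and 7 lower (background 8.4%).

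**Figure D5:**
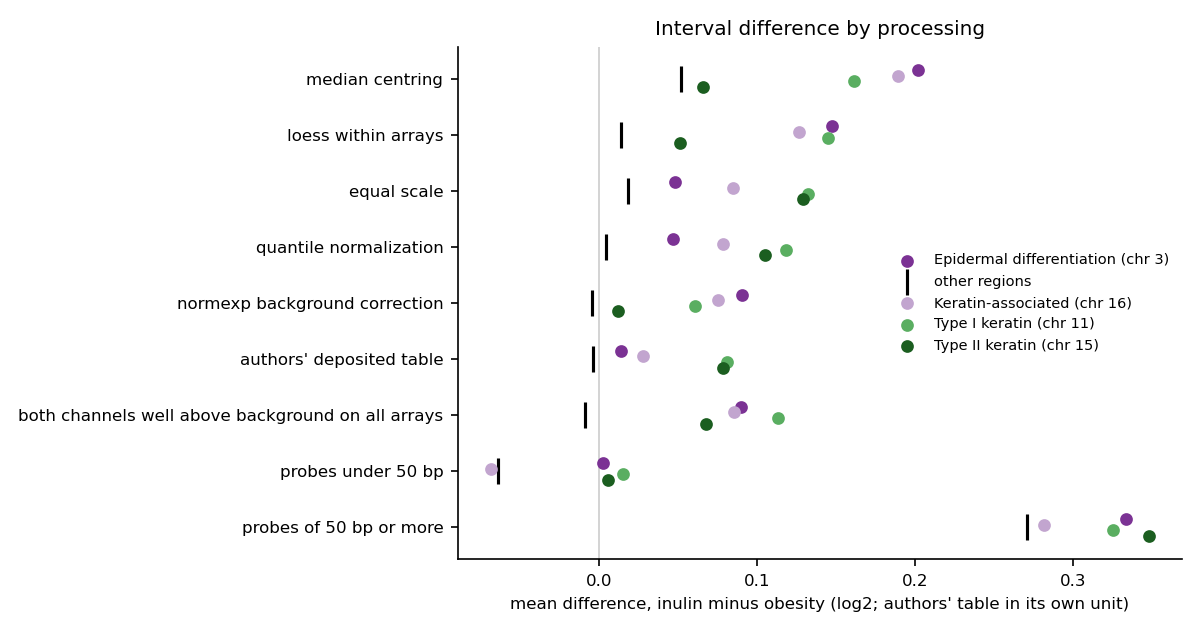
Mean difference of each interval (inulin minus obesity) under each way of processing the arrays, as dots on a log2 axis, with the authors' deposited table in its own unit; black ticks are the regions outside the intervals. The epidermal differentiation interval ranges from 0.0024 with probes under 50 bp to 0.33 with probes of at least 50 bp.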

How the data were processed

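The members were chosen by position, but the intervals, lists and tests were chosen with earlier results of these data known. Per the file headers, the authors extracted each dual-colour array with Feature Extraction 11.0.1.1 (protocol ChIP_1100_Jul11, mm9), and the processed intensity values are background-subtracted and dye-normalized. The deposited log10 ratio per spot matched the log10 ratio of these intensities within 0.0001 at 98.5% to 99.6% of spots. The authors' deposited table holds a score per probe whose scale and centring are not known and whose making the sources used here do not give. It correlated with the array ratios at 0.87 to 0.91, with medians of 0.043 to 0.061.

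From the deposited intensities, log2 of red over green and each channel were computed without spots marked as outliers (1901 to 4863 per array), centred on the array median with no loess or quantile step, and averaged per region. Regions needed values on at least 2 arrays per group. The group test was that of limma 3.58.1 under R 4.3.3 (two-sided lmFit and eBayes, Benjamini-Hochberg over all regions, threshold 0.05), tested on simulated data. Interval means were compared by exact permutation tests. Differences are inulin minus obesity.

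Per interval, the named regions are up to 3 calls per direction with the largest difference, the 2 lowest p, the 2 highest and 2 lowest levels and the run with the most probes. Alternatives were other background corrections and scalings, the authors' table, filters on dim spots and probe length, other region rules, a threshold of 0.1, blocks for replicate number and scan, and leaving out each array. Gene names of regions were not used here, because no mm9 annotation was at hand. Promoters came from RefSeq (GRCm38.p6). Figures were drawn with matplotlib 3.10.9.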

Additional observations from a re-analysis of the deposited data

How the results depend on the processing

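Of the 17 called regions, 17 had a higher level in the inulin group after loess, equal scale and quantile normalization, 16 after normexp and with the input filter, 15 in the authors' table, 14 of 15 tested with both channels above background and 8 of 9 tested with probes under 50 bp. Their median difference of 0.42 was 0.39 after loess, 0.25 with equal scale and with quantile normalization, 0.21 after normexp and 0.13 in the authors' table. The number of calls changed too. Loess gave 29 calls (28 higher, 1 lower), equal scale 7, quantile normalization 1 and the values of the authors' deposited table gave 3. A filter for both channels well above background gave 10 (8 higher, 2 lower), the median of the probes 4 (3 higher, 1 lower) and a threshold of 0.1 gave 47. Probes under 50 bp gave 10 calls (3 higher, 7 lower) and probes of at least 50 bp 30, where the median difference over all regions was -0.069 and 0.26 in place of 0.033. Of the 17, 14 were also called after normexp, 15 after loess, 5 with equal scale, 1 by quantile normalization, 1 from the authors' table and 0 with scan as a random block (correlation 0.289), which gave 0 calls. Leaving out single arrays gave 0 to 28 calls (backgrounds 0% to 9.62%), with all 17 regions higher each time. Because the 17 were chosen as higher on these same arrays, their direction in these settings gives no separate support. The cause of these changes was not tested.

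The difference of the epidermal differentiation interval moved to 0.090 after normexp, 0.048 with equal scale, 0.047 by quantile normalization, 0.014 from the authors' table, 0.090 with both channels above background, 0.0024 with probes under 50 bp and 0.33 with longer probes. The type I keratin interval moved to 0.061 after normexp, 0.081 in the authors' table, 0.015 and 0.33 by probe length, and the type II keratin interval, at 0.066, to 0.35 with longer probes. The type II keratin difference was 0.012 after normexp, 0.13 with equal scale, 0.11 by quantile normalization, 0.029 with the median of the probes and 0.0057 with probes under 50 bp. The keratin-associated protein interval moved to 0.075 after normexp, 0.13 after loess, 0.084 with equal scale, 0.079 by quantile normalization, 0.028 from the authors' table, 0.085 with both channels above background, 0.28 with longer probes and, turned around, -0.069 with probes under 50 bp. The distance from type I keratin to keratin-associated protein turned to -0.025 with longer probes. The region chr11:99250188-99251571 turned to -0.020 after normexp, -0.0059 in the authors' table, -0.012 with the input above background, and -0.082 with both channels above background or probes under 50 bp.

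With 5 arrays the smallest sign-flip p is 0.0625. Without each array in turn, the distance from epidermal differentiation ranged from -0.58 to -0.52 for type I keratin, -1.02 to -0.94 for type II keratin and -0.23 to -0.22 for keratin-associated protein. It ranged from -0.45 to -0.41 between type I and type II keratin, 0.30 to 0.34 between type I keratin and keratin-associated protein and 0.72 to 0.79 between type II keratin and keratin-associated protein. The replicate numbers share no stated source. Same-numbered arrays correlated at -0.14, 0.28 and 0.33 in their deviations from the group means, and arrays of different number at -0.38 to 0.22. The 3 deviations of a group sum to 0, so these correlations cannot decide whether the numbers pair the samples. A replicate block gave 33 calls of 193, against 2699 of 22574 (12%) on the whole array. Dim MeDIP spots limit the longest probes most: under 50% of MeDIP spots were well above background at 19 of the 193 regions (9.84%), against 6.58% of all regions.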
